A study of Mus musculus with 23 samples.

Results

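Livers labelled as lacking both interleukin-4 and interleukin-10 were compared with wild-type livers of mice kept on normal chow, across all genes. The members are the 8 libraries of the estimated-count table whose titles read IL4-IL10_normal (4, called dKO_chow here) and WT_normal (4, called WT_chow), out of 23 libraries in the series. Each library is RNA from a perfused liver of a male mouse on the C57Bl/6 background, obtained from Taconic at 6 to 8 weeks of age and then fed for 15 weeks. The other 15 libraries are IL-4 knockout livers on chow (IL4KO_chow, 4 libraries), and wild-type (WT_HFD, 4), IL-4 knockout (IL4KO_HFD, 3) and double knockout (dKO_HFD, 4) livers from mice given feed with 60% of its calories as fat for the same time. They entered the same fit and are used below where a difference on chow is set beside another group. The labels name the knocked-out genes but not the alleles, and do not say whether the genotypes were littermates or shared cages, so genotype cannot be told apart from colony or housing. No label says that the libraries of a group came from separate animals, so p-values measure the spread between these samples.

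IL-4 is a cytokine of T helper 2 cells, basophils and innate lymphocytes that signals through IL4RA and STAT6 and steers macrophages towards repair programmes. IL-10, made by macrophages and T cells, signals through IL10RA, IL10RB and STAT3 and restrains the production of inflammatory cytokines by macrophages. Mice without IL-10 are known for intestinal inflammation that depends on gut bacteria, and the liver receives the blood that drains the gut. The liver answers inflammatory cytokines, IL-6 and IL-1 above all, with the acute phase response, in which hepatocytes make more serum amyloid A, haptoglobin, orosomucoid and fibrinogen and less of other secreted proteins and metabolic enzymes.

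The WT_chow libraries held 10878999 to 12546501 estimated counts and the dKO_chow libraries 16220798 to 30205078, so depth differed with the genotype. The count of genes called below was 4924 when every library was thinned to the smallest total of the series. Liver identity was plain in all 8 libraries: albumin (Alb), the main secreted protein of hepatocytes, gave 59234 to 87885 CPM (counts scaled to a common library size, with totals adjusted by trimmed mean of M values). Pancreas, muscle and adipose markers passed the filter on low counts for 2 of 17 genes, and Xist gave 1 to 3 counts a library. On the first principal component of the 8 libraries, which held 72.5% of their variance, WT_chow lay between -58.04 and -36.33 and dKO_chow between 40.18 and 50.55. Replicates of a group correlated at Pearson's r of 0.9816 to 0.9847 in WT_chow and 0.9865 to 0.9898 in dKO_chow across genes, which are not independent of each other. WT_chow replicate 2 stood above the other WT_chow libraries in acute phase genes, and replicate 1 in several neutrophil genes; their values are given beside the results they move. Of the libraries used for comparison, dKO_HFD replicate 4 stood apart from its group: on the first principal component of all 23 libraries, which held 39.0% of their variance, it lay at 43.1, between the other dKO_HFD libraries (-17.19 to -10.23) and dKO_chow (64.64 to 74.76).

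Of 12891 genes tested, 5966 (46.3%) were called at a false discovery rate (FDR) under 0.05 in edgeR's quasi-likelihood test, 3148 (24.4%) higher and 2818 (21.9%) lower in dKO_chow. The CPM of the 4 dKO_chow libraries and the 4 WT_chow libraries did not overlap for 5653 genes (43.9%), 3061 higher and 2592 lower. Increases were the larger changes: 1391 of the genes called higher and 365 of those called lower differed at least 2-fold, and 426 and 77 at least 4-fold. Direction went with level. Among genes with a mean under 1 CPM, 37.1% were called higher and 4.24% lower, whereas among genes between 100 and 1000 CPM, 8.62% were called higher and 59.0% lower. A scarce gene read mainly in dKO_chow could pass the filter on low counts while a gene scarce in every group could not. The tested scarce genes are therefore not an even sample of scarce genes. With a stricter filter, 2884 of 12440 tested genes were called higher and 2949 lower. Over all tested genes the median log2 fold change was 0.024 and the median size of a log2 fold change was 0.31, beside a median standard error (SE) of 0.13. With upper quartile scaling in place of trimmed means, the same test called 3748 genes higher and 2183 lower, a shift of the median of all genes to 0.095.

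**Figure D1:**
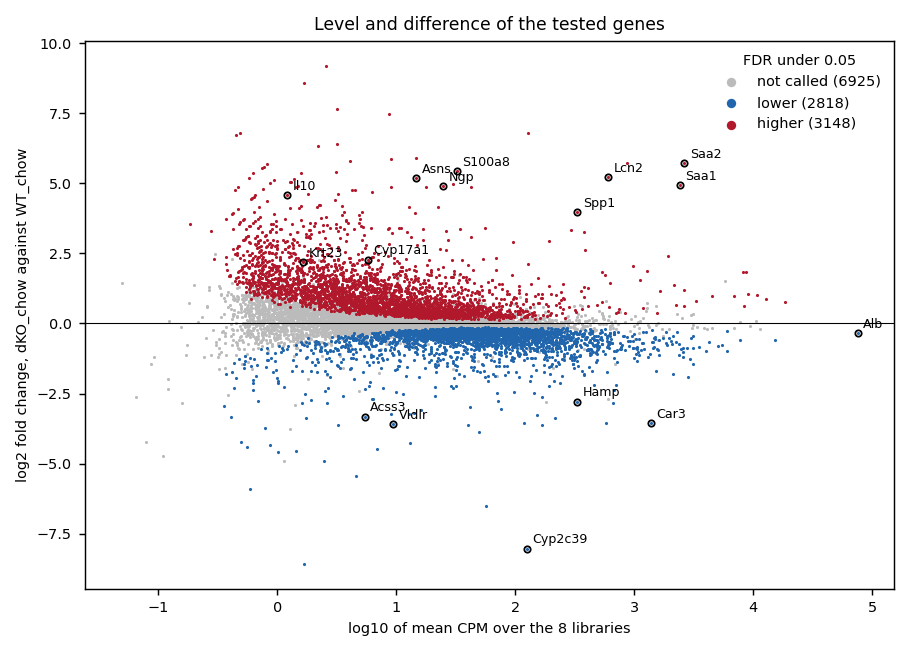
Each point is 1 of the 12891 tested genes; the horizontal axis is the log10 of its mean CPM over the 8 libraries and the vertical axis its log2 fold change in dKO_chow against WT_chow. Red points (3148) were called higher, blue points (2818) lower and grey points were not called; the red points reach further from 0 and lie further to the left than the blue ones.

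The gene lists were read against the shares of all tested genes, 24.4% higher and 21.9% lower. These shares were taken over all levels, although direction went with level as given above. How far the count of a list goes with the level of its members was not tested. The lists with the highest share of members called higher were markers of neutrophils and cholangiocytes, monocyte-derived macrophage markers, acute phase proteins and inflammatory cytokines. Those with the highest share called lower were subunits of the respiratory chain, the TCA cycle, the proteasome and enzymes of amino acid breakdown. Members had to pass a filter on low counts that any of the 6 groups could satisfy, so a scarce gene read mainly in dKO_chow could enter a list while a gene scarce in every group could not.

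**Figure D2:**
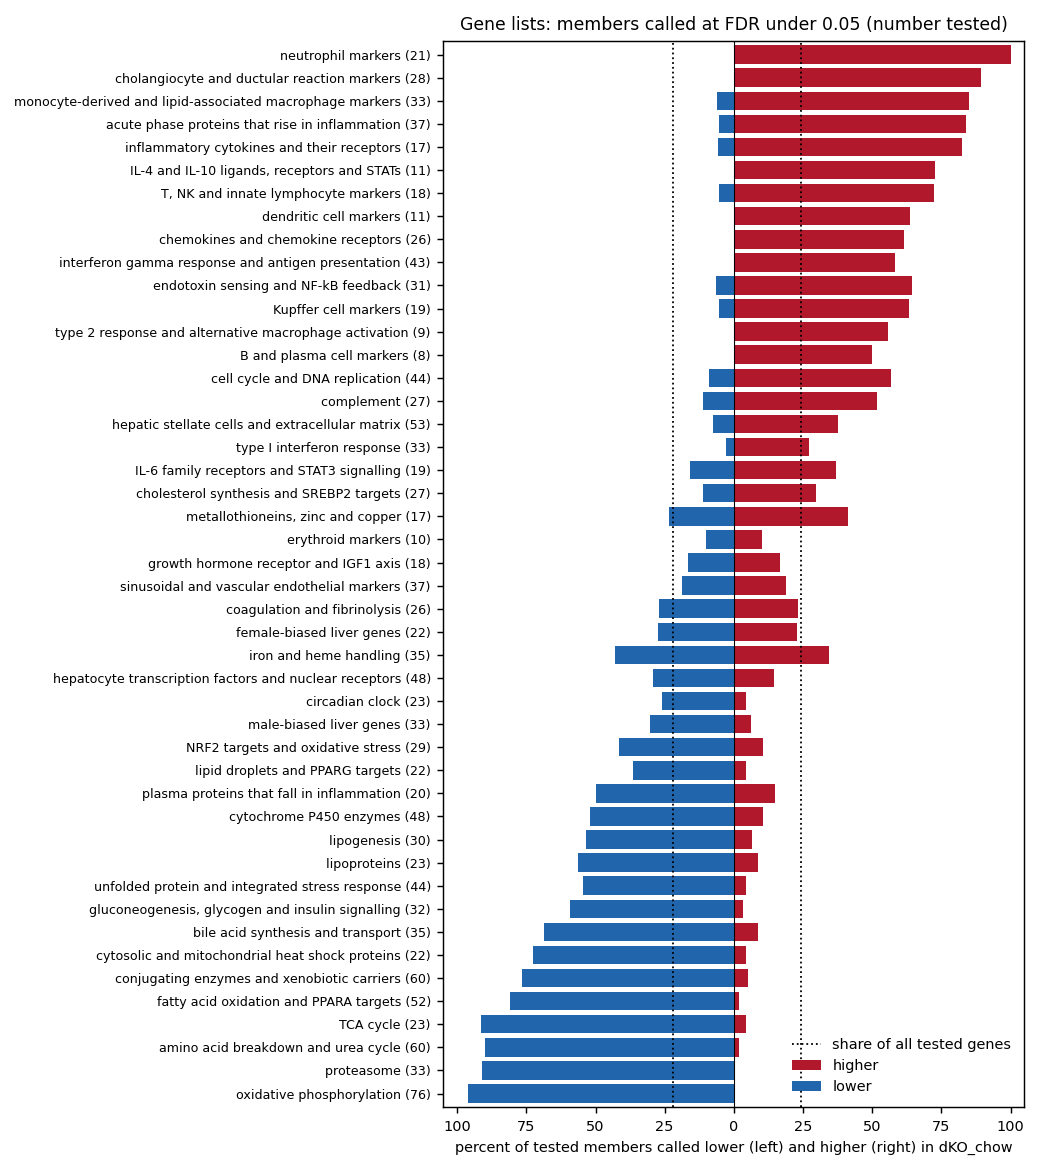
Bars give, for each list with at least 8 tested members (number in brackets), the percent of tested members called higher (red, right) and lower (blue, left) in dKO_chow at FDR under 0.05. Dotted lines mark the shares over all tested genes, 24.4% higher and 21.9% lower; neutrophil markers reach 100% on the right and oxidative phosphorylation 96.1% on the left.

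Per-library values are given in the order of replicates 1 to 4, and a rise or fall given without a unit is on the log2 scale. Il4 gave no count in any WT_chow library and 3, 3, 0 and 0 counts in dKO_chow replicates 1 to 4, so it was too scarce to test and does not check the labels. Il10 went against them: it gave 2, 2, 0 and 0 counts in WT_chow and 41, 67, 41 and 64 in dKO_chow. On the CPM scale that was 0.185, 0.163, 0 and 0 CPM in WT_chow replicates 1 to 4 and 1.96, 2.0, 2.39 and 2.99 CPM in dKO_chow replicates 1 to 4, a log2 fold change of 4.58 ± 0.69 (SE), FDR = 3.1e-05. The counts are per gene, so they do not show which part of Il10 the reads came from, and an allele that is transcribed without giving a working protein cannot be told apart from an intact one. The 4 libraries are therefore called the libraries labelled dKO wherever a direction is drawn from Il10. In IL4KO_chow, Il10 gave 0 to 2 counts a library. On high-fat feed Il10 was also higher in dKO_HFD, at 6, 8, 17 and 21 counts, than in WT_HFD, at 0, 4, 1 and 1. The log2 fold change there was 2.68 ± 0.72 (SE), FDR = 0.011.

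Receptors and signal carriers of both cytokines were higher in the libraries labelled dKO. Of 14 listed ligands, receptors and STATs, 11 were tested, and 8 rose and none fell. Il10ra, the ligand-binding chain of the IL-10 receptor, gave 5.83, 5.71, 2.72 and 4.89 CPM in WT_chow and 7.61, 9.65, 9.51 and 6.96 CPM in dKO_chow (log2 fold change 0.82 ± 0.25 (SE), FDR = 0.012; without WT_chow replicate 3, 0.61, FDR = 0.059). Il2rg, the chain that the IL-4 receptor shares with those of other interleukins, rose by 1.65 and Jak3, the kinase bound to it, by 1.28 on the log2 scale. Il4ra rose by 0.45, and Bcl3, a nuclear NF-kB partner that IL-10 induces in macrophages, by 1.27. Of 15 listed genes of type 2 responses 9 passed the filter on low counts, of which 5 rose (Chil3, Cd163, Il33, Ccl22 and Ear2), or 3 without dKO_chow replicate 2 or 4; Ear2 was not called without WT_chow replicate 1, 2, 3 or 4 or dKO_chow replicate 2, 3 or 4 (FDR of 0.053 to 0.12). Chil3, a chitinase-like protein of macrophages and of neutrophil precursors, went from 1.2, 0, 0 and 0 CPM to 7.52, 17, 33.7 and 12.8 CPM (log2 fold change 5.88 ± 1.07 (SE), FDR = 2.7e-04), whereas Retnla, the other common marker of alternatively activated macrophages, gave no count in any of the 8 libraries. All WT_chow counts of Chil3 came from replicate 1. Cd163, the haemoglobin-haptoglobin scavenger receptor, rose by 1.58, and the alarmin Il33 by 1.80.

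Acute phase proteins were higher almost throughout. Of 37 listed genes, all tested, 31 rose and 2 fell, with a median log2 fold change of 1.84. Their CPM summed to 28920 to 50100 in the WT_chow libraries and to 84850 to 112700 in the dKO_chow libraries. Among the members that rose, Lcn2 and Ngp are also listed as neutrophil markers, and Spp1 as a macrophage and a bile duct marker. Serum amyloid A1 (Saa1), an apolipoprotein of inflammatory plasma, gave 42.5, 527, 17.7 and 27 CPM in the WT_chow libraries and 4454, 2918, 6037 and 5303 CPM in the dKO_chow libraries. Its near-identical neighbour Saa2 gave 21.1, 348, 11 and 12.5 CPM in WT_chow and 4781, 2806, 7639.8 and 5495 CPM in dKO_chow. Every dKO_chow library lay above every WT_chow library in both genes, and WT_chow replicate 2 lay far above the other WT_chow libraries. The log2 fold changes were 4.93 ± 1.40 (SE), FDR = 0.0084 for Saa1 and 5.72 ± 1.58 (SE), FDR = 0.0071 for Saa2; reads that match both genes could have been assigned to either. Lcn2, lipocalin-2, which binds bacterial siderophores and is made by hepatocytes and neutrophils, gave 23.2, 90.8, 4.89 and 6.67 CPM in the WT_chow libraries and 1208, 918, 1303 and 1248 CPM in the dKO_chow libraries (log2 fold change 5.21 ± 1.16 (SE), FDR = 0.0015). Without WT_chow replicate 2 the log2 fold changes were 7.32 for Saa1 (FDR = 0.0013), 8.43 for Saa2 and 6.64 for Lcn2.

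The promoters of 5 acute phase genes, 4 that rose and Hamp that fell, are shown, chosen with their matches known. Those of Saa3, which held C/EBP letters only, and of Lcn2 and Lrg1, which held neither set of letters, were read as well and are not printed. The sequences are from RefSeq (build GRCm38.p6) and run from 140 bases before the transcription start to the base before it, 5′ to 3′ on the gene's strand; capitals mark matches on either strand to TTCNNNGAA (bound by STAT factors) or TTNNGNAA (a short form of the C/EBP site), which may overlap.
Saa1, chr7:46742981-46743120, minus strand: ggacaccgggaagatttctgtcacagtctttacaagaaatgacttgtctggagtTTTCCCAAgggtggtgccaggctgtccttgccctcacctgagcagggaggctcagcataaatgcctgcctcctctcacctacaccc
Saa2, chr7:46751693-46751832, plus strand: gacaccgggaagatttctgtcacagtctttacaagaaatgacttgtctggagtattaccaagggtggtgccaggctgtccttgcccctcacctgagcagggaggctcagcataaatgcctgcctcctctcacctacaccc
Steap4, chr5:7960332-7960471, plus strand: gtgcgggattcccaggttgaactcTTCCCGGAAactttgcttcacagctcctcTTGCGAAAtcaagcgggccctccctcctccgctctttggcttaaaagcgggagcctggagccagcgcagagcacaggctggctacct
Fgb, chr3:83049864-83050003, minus strand: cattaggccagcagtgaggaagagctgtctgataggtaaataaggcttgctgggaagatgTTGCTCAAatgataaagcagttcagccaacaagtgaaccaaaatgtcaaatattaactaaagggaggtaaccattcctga
Hamp, chr7:30944030-30944169, minus strand: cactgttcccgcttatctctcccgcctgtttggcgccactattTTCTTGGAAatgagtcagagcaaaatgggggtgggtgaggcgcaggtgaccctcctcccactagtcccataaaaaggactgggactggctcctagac

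The Saa1 and Saa2 stretches were 97.2% identical over 141 aligned columns, with 2 mismatches and 2 gaps, and the C/EBP letters at -86 were present in Saa1 and not in Saa2. Steap4, a metalloreductase, and Hamp, which encodes hepcidin, held STAT letters at -116 and -97, and Fgb, the fibrinogen beta chain, held C/EBP letters at -80. Over the window from 250 bases before to 50 after the start, STAT letters were found in 27.6% of the 29 acute phase promoters in the table and in 8.47% of all 27025 promoters there. C/EBP letters were in 62.1% and 40.7%, and the NF-kB letters GGNNTTTCC in 13.8% and 5.72% (3.45% and 3.04% in the 150 bases before the start). Genes called higher as a whole did not stand apart in this count: STAT letters were in 7.13% of 2385 promoters of genes called higher and in 6.28% of 2183 of genes called lower. Members that share STAT letters also went opposite ways, since Steap4 rose by 1.85 and Hamp fell by 2.79 on the log2 scale.

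Haptoglobin (Hp), which binds free haemoglobin, gave 2822, 5660.4, 2986 and 2918 CPM in WT_chow and 12093, 11573, 12839 and 14620 CPM in dKO_chow (log2 fold change 1.83 ± 0.28 (SE), FDR = 3.0e-05). Hemopexin (Hpx), the scavenger of free heme, rose by 1.84, from a mean of 3823 ± 1387 to 13682 ± 1148 CPM (SD, n = 4), the largest gain in CPM of any named gene. Orm2, an orosomucoid, a plasma carrier of basic drugs, went from 13.4, 97.7, 5.16 and 13 CPM to 1664, 1687, 2067 and 1404 CPM, and its paralogue Orm1 from 645, 1086, 287 and 448 to 3260.3, 2708, 3499 and 3491. The log2 fold change of Orm2 was 5.71, and 7.33 without WT_chow replicate 2. The fibrinogen chains Fga, Fgb and Fgg rose together, by 1.01, 1.05 and 0.99. Apcs, the pentraxin that is the main acute phase pentraxin of mice, rose by 2.61, while C-reactive protein (Crp), which responds weakly in mice, differed by 0.25 (FDR = 0.054; 0.036 without WT_chow replicate 2). The metallothioneins Mt1 and Mt2, zinc-binding proteins that IL-6 and glucocorticoids induce, rose by 3.25 and 3.33, or by 4.42 and 4.69 without WT_chow replicate 1. The members that fell were both hepcidins: Hamp, the hormone that blocks iron export and that IL-6 raises, gave 720.5, 452, 579.7 and 551 CPM in the WT_chow libraries and 68, 202, 44.6 and 17.8 CPM in the dKO_chow libraries, with no overlap (log2 fold change -2.79 ± 0.89 (SE), FDR = 0.016), and Hamp2 fell by 2.68. Without dKO_chow replicate 2, the highest of its group, the log2 fold changes were -3.74 and -4.82.

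Of 20 plasma proteins that are known to fall in inflammation, 10 fell and 3 rose. Alb gave 87885, 85101, 80620 and 83522 CPM in WT_chow and 70409, 59234, 67975 and 67954 CPM in dKO_chow, a fall of 0.34 ± 0.13 (SE) on the log2 scale (FDR = 0.033). The call of Alb was lost without WT_chow replicate 1 (FDR = 0.057), WT_chow replicate 2 (0.052) or dKO_chow replicate 2 (0.091), and with upper quartile scaling (0.074). Transthyretin (Ttr), carrier of thyroid hormone, fell by 0.78, retinol-binding protein (Rbp4) by 0.90 and paraoxonase (Pon1) by 0.98. Transferrin (Trf), which carries iron, rose instead, from 13823 ± 1542 to 23304 ± 886 CPM, as did Ambp and Pzp, by 0.80 and 0.63. Among 27 complement genes, 14 rose and 3 fell. C3, the central component, rose by 0.86 and the phagocyte receptors C5ar1 and C3ar1 by 2.11 and 1.43, whereas Mbl2, a mannose-binding lectin, fell by 0.39, C8g, of the membrane attack complex, by 0.92 and Masp2, a protease partner of Mbl2, by 0.18 (FDR = 0.042; not called without WT_chow replicate 1 or dKO_chow replicate 1 or 3 (FDR of 0.060 to 0.078)). Coagulation showed no single direction, with 6 of 26 tested genes higher and 7 lower, both near the shares of all genes. F13a1, a clotting factor subunit made by macrophages and platelets, rose by 4.60 from 0.133 ± 0.176 CPM (5.67 without WT_chow replicate 1), and the hepatocyte-made F13b fell by 0.70.

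**Figure D3:**
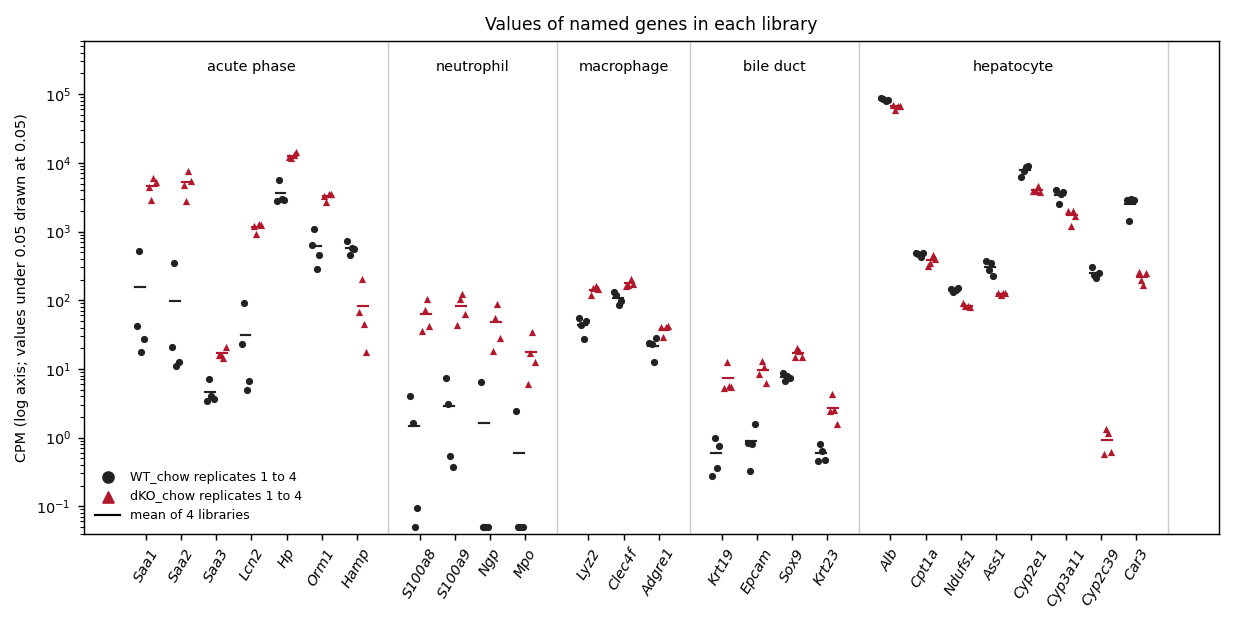
CPM on a log axis of named genes in each WT_chow library (black circles) and dKO_chow library (red triangles), replicates 1 to 4 from left to right; short lines are means of 4 libraries and values under 0.05 are drawn at 0.05. Saa1, Saa2 and Lcn2 show 1 WT_chow library (replicate 2) far above the other WT_chow libraries and still below all dKO_chow libraries; Cyp2c39 is far lower in every dKO_chow library.

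The receptors of the IL-6 family and their feedback genes moved in both directions. Of 19 tested genes, 7 rose and 3 fell. Socs3, the feedback inhibitor that STAT3 induces, gave 7.03, 19, 3.8 and 10.5 CPM in the WT_chow libraries and 37.5, 52.1, 54.9 and 51.8 CPM in the dKO_chow libraries (log2 fold change 2.27 ± 0.61 (SE), FDR = 0.0057), and Stat3 rose by 0.62. Osmr, the oncostatin M receptor, and Il22ra1, the IL-22 receptor of epithelial cells, rose by 1.52 and 1.72. The kinase Pim3 fell by 1.51 and Il11ra1, the IL-11 receptor, by 0.34. Il6ra, the IL-6 receptor itself, fell by 0.56 (FDR = 0.036), a call that was lost without WT_chow replicate 1 or 2 (FDR = 0.094 and 0.064), without dKO_chow replicate 1, 2 or 4 (0.051, 0.11 and 0.053) and with upper quartile scaling (0.058). Il6, Osm, Lif and Il22 did not pass the filter.

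Sensors of bacterial products and cytokine genes were higher. In the list of endotoxin sensing and NF-kB feedback, 20 of 31 tested genes rose and 2 fell. Tlr2, receptor for bacterial lipopeptides, went from 2.77, 2.36, 1.45 and 2.72 CPM to 16, 11.9, 12.6 and 14 CPM (log2 fold change 2.54 ± 0.44 (SE), FDR = 1.3e-04), and Irak3, a brake on Toll-like receptor signalling in myeloid cells, rose by 2.79. Aoah, which inactivates lipopolysaccharide, rose by 1.73. Tlr4, the lipopolysaccharide receptor, overlapped between the groups (1.92 ± 0.708 and 2.88 ± 0.474 CPM, FDR = 0.11), and Nfkbia, the NF-kB inhibitor, and the kinase Irak1 fell, by 0.47 and 0.16 (Irak1 was not called without WT_chow replicate 1 or 2 or dKO_chow replicate 1 or 4 (FDR of 0.062 to 0.11)). Of 17 tested inflammatory cytokines and receptors, 14 rose and 1 fell. Il1b gave 2.22, 1.39, 0.996 and 2.35 CPM in WT_chow and 5.08, 6.45, 7.76 and 7.56 CPM in dKO_chow (log2 fold change 1.95 ± 0.40 (SE), FDR = 5.1e-04). Il1r1, the signalling receptor for IL-1, rose by 1.63 and the decoy Il1r2 by 3.11 (4.11 without WT_chow replicate 2), while the co-receptor Il1rap fell by 0.91. Tnf did not pass the filter.

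Of 42 listed chemokines and receptors, 26 were tested, and 16 rose and none fell. The neutrophil attractant Cxcl1 gave 5.55, 7.18, 3.99 and 2.44 CPM in the WT_chow libraries and 46.3, 41.4, 69.1 and 33.6 CPM in the dKO_chow libraries (log2 fold change 3.30 ± 0.58 (SE), FDR = 2.0e-04). Cxcl13, which draws B cells, rose by 4.15 (3.36 without dKO_chow replicate 4), and Cxcl14 by 4.87, to 34.4 ± 2.83 CPM. In the interferon gamma and antigen presentation list, 25 of 43 genes rose and none fell. The class II genes H2-Aa and H2-Eb1 rose by 1.42 and 1.54 and their activator Ciita by 2.37. In the type I interferon list, 9 of 33 rose (a share near the 24.4% of all genes) and Rsad2 fell by 0.91. Without WT_chow replicate 3 or 4 the count that rose was 4, and without dKO_chow replicate 3 it was 5; it was 14 with upper quartile scaling, with limma-voom and without both WT_chow replicates 1 and 2. Ifit1 and Isg15, classical targets, differed by -0.069 and -0.034 (FDR = 0.81 and 0.90).

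Neutrophil genes made up the list with the highest median. Of 24 listed markers, 21 were tested and all of these rose, with a median log2 fold change of 4.76. S100a8, a calcium-binding protein that fills the neutrophil cytosol, gave 4.07, 1.63, 0 and 0.094 CPM in WT_chow and 36, 72.2, 103 and 42.1 CPM in dKO_chow (log2 fold change 5.43 ± 1.03 (SE), FDR = 4.2e-04). Primary granule genes, which are transcribed in immature precursors, were included: Mpo, myeloperoxidase, went from 2.4, 0, 0 and 0 CPM to 5.98, 16.9, 34 and 12.7 CPM (FDR = 0.0016, and 0.059 with DESeq2), and Elane, neutrophil elastase, from 0.555, 0.245, 0.181 and 0.094 to 1.96, 5.62, 11.1 and 4.67. Ctsg gave 226 counts in dKO_chow and 3 in WT_chow, a ratio of 36.3 after scaling (95% interval 12.3 to 177.3, counting error only), and all 3 WT_chow counts lay in replicate 1. The secondary granule genes Ltf and Ngp, lactoferrin and neutrophilic granule protein, rose by 5.90 and 4.91, and Cd177, a surface protein, by 5.42. The groups did not overlap in any gene of this paragraph or in any of the 21 tested markers, beside no overlap for 43.9% of all tested genes. Among the WT_chow libraries Lcn2, also a listed marker, was highest in replicate 2, as given above. In each other gene named in this paragraph WT_chow replicate 1 was the highest WT_chow library. Without it S100a8 was higher by 6.65 (FDR = 7.0e-04), Cd177 by 7.31 and Ltf by 8.71, while Ngp and Mpo were at 0 CPM in all WT_chow libraries that remained. In bulk RNA, more cells of a type and more RNA per cell cannot be told apart, here and for each cell type below.

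Macrophage genes rose by smaller factors. Of 19 Kupffer cell markers, 12 rose, or 7 without WT_chow replicate 3, and the iron exporter Slc40a1 fell by 0.38. Clec4f, a lectin restricted to Kupffer cells in mouse liver, gave 132, 121, 84.5 and 96.7 CPM in the WT_chow libraries and 160.2, 166, 203 and 174 CPM in the dKO_chow libraries (log2 fold change 0.70 ± 0.18 (SE), FDR = 0.0030), and Timd4, a receptor for apoptotic cells on resident Kupffer cells, rose by 1.21. Csf1r, the receptor for macrophage growth factor, rose by 1.18. Of 33 tested markers of monocyte-derived and lipid-associated macrophages, 28 rose and 2 fell. Lyz2, lysozyme of myeloid cells, gave 54.5, 43.1, 27.2 and 49.9 CPM in WT_chow and 119, 148, 161 and 145 CPM in dKO_chow (log2 fold change 1.71 ± 0.29 (SE), FDR = 1.2e-04). Ly6c2, of inflammatory monocytes, rose by 3.05 and Cx3cr1 by 2.68. The members that fell, Plin2 and Apoc2, are made in quantity by hepatocytes, and the call of Plin2 (FDR = 0.048) was lost without any of WT_chow replicates 1, 2 and 3 and dKO_chow replicates 1 and 2 (FDR = 0.087 to 0.16). Spp1, osteopontin, made by macrophages and by bile duct cells, gave 42, 40.9, 35 and 40.8 CPM in the WT_chow libraries and 563, 737, 776 and 421 CPM in the dKO_chow libraries (log2 fold change 3.98 ± 0.42 (SE), FDR = 2.1e-06).

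Lymphoid genes were scarce in both groups. Of 37 listed T, NK and innate lymphocyte markers, 18 were tested, and 13 rose and 1 fell; thinned to equal depth, 8 rose, and without the filter, 21. Cd3e, a chain of the T cell receptor complex, gave 0.37, 0.326, 0.181 and 0.188 CPM in WT_chow and 0.862, 1.46, 0.70 and 1.4 CPM in dKO_chow (log2 fold change 2.04 ± 0.64 (SE), FDR = 0.012), and Cd8a rose by 2.37. Zap70, the kinase of that complex, went the other way, from 9.25, 6.69, 10.1 and 8.93 CPM to 3.06, 3.41, 2.74 and 3.17 CPM (log2 fold change -1.48 ± 0.23 (SE), FDR = 2.7e-05), and its level in WT_chow was above that of every CD3 chain tested. Foxp3, Trac and Trbc2 did not pass the filter. Jchain, of antibody-secreting cells, rose by 1.88, and 4 of 8 tested B and plasma cell markers rose (Jchain, Blnk, Pou2af1 and Xbp1; 2 without WT_chow replicate 2 or 3 or dKO_chow replicate 2 or 4); Cd79a and Ms4a1 did not pass. Pou2af1 was not called without WT_chow replicate 3 or 4 (FDR of 0.072 to 0.076), and its log2 fold change of 1.47 was 2.15 without WT_chow replicate 1. Xbp1 was not called without WT_chow replicate 1, 2 or 3 or dKO_chow replicate 1, 2 or 4 (FDR of 0.072 to 0.12). Of 11 tested dendritic cell markers 7 rose, 4 without WT_chow replicate 3 and 1 at equal depth; Flt3 rose by 1.78 (1.36 without WT_chow replicate 3, FDR = 0.063) and Xcr1 by 2.43, both near or under 1 CPM. Of 14 listed markers of eosinophils, basophils and mast cells 1 was tested, and it was not called; Epx gave 2 counts in dKO_chow and 1 in WT_chow, and Cpa3 3 and 0. Erythroid markers gave 1 gene higher (Tfrc) and 1 lower (Alas2) of 10, with Hba-a1 at 23.5 to 137 CPM over the 8 libraries.

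**Figure D4:**
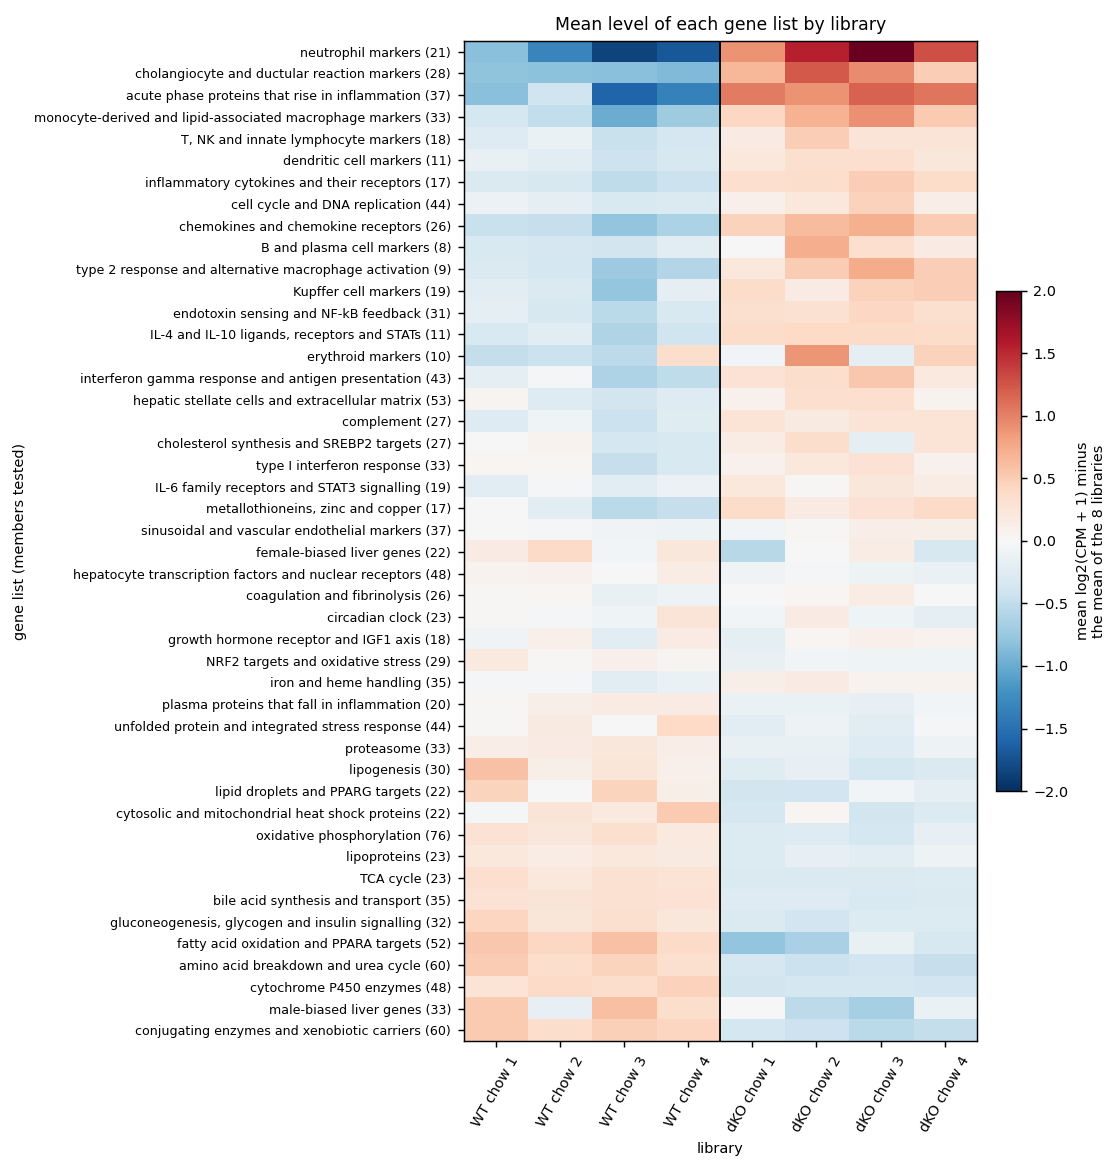
Colour gives the mean over a list's tested members of log2(CPM + 1), minus the mean of the 8 libraries, for each library (columns) and list (rows, ordered by median log2 fold change). In the rows of neutrophil markers and acute phase proteins WT_chow replicates 1 and 2 lie between WT_chow replicates 3 and 4 and the dKO_chow libraries; in the rows of fatty acid oxidation and amino acid breakdown all 4 WT_chow libraries lie above all 4 dKO_chow libraries, while the groups overlap in other low rows, such as male-biased genes and heat shock proteins.

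Of 33 listed markers of cholangiocytes and the ductular reaction, 28 were tested, and 25 rose and none fell, with a median log2 fold change of 3.36. Krt19, a keratin of biliary epithelium, gave 0.277, 0.979, 0.362 and 0.752 CPM in the WT_chow libraries and 5.22, 12.6, 5.72 and 5.51 CPM in the dKO_chow libraries (log2 fold change 3.59 ± 0.37 (SE), FDR = 4.3e-07). Epcam, an adhesion molecule of biliary and progenitor cells, gave 0.832, 0.326, 0.815 and 1.6 CPM in WT_chow and 8.33, 13.1, 10.6 and 6.21 CPM in dKO_chow (log2 fold change 3.43 ± 0.31 (SE), FDR = 6.3e-08). Mmp7, a metalloprotease of biliary epithelium, went from 0.185, 0, 0.181 and 0 CPM to 14.4, 23.5, 20.1 and 11.1 CPM, a log2 fold change of 7.46. The ductal transcription factor Sox9 rose by 1.16, and Cftr, the chloride channel of the duct membrane, by 3.57. Cldn4, a tight junction protein, gave 114 counts in dKO_chow and 2 in WT_chow, a ratio of 27.5 (95% interval 7.43 to 229.4). Krt8 and Krt18, which hepatocytes also make, differed by 0.27 and 0.29 and were not called, though a fit of the 8 libraries alone called both (FDR = 0.036 and 0.017). No gene named in this paragraph that rose had overlapping groups. In the whole list the groups did not overlap for 23 of the 28 tested members, beside 43.9% of all tested genes.

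Matrix and endothelial genes were less uniform. Of 53 stellate cell and matrix genes, 20 rose and 4 fell (Col18a1, Ecm1, Mmp19 and Reln); 12 rose without WT_chow replicate 3, and 13 at equal depth. Col1a1, the main fibrillar collagen, gave 7.4, 6.12, 3.71 and 3.76 CPM in the WT_chow libraries and 12.5, 19.1, 17.7 and 11.9 CPM in the dKO_chow libraries; the groups did not overlap, but the difference of 1.54 ± 0.69 (SE) was not called (FDR = 0.075). It was called when the 8 libraries were fitted alone (FDR = 8.6e-04) and with DESeq2 (0.038). Timp1, an inhibitor of matrix proteases, rose by 3.91, Fbln1, a matrix glycoprotein, by 3.16 (3.92 without WT_chow replicate 4), and the collagen cross-linking enzyme Lox by 1.99 (2.67 without WT_chow replicate 1). Lrat, the retinoid-storing enzyme of quiescent stellate cells, overlapped between the groups (17.4 ± 2.54 and 13.8 ± 1.42 CPM) and was not called (FDR = 0.16; 0.030 when the 8 libraries were fitted alone). Of 37 endothelial genes 7 rose and 7 fell, both under the shares of all genes; 4 rose without dKO_chow replicate 3 or 4, without both WT_chow replicates 1 and 2, and without the filter. Icam1, the leukocyte adhesion molecule, which other cells also make, gave 10.3, 11.8, 7.7 and 10.1 CPM in WT_chow and 41, 38.9, 39.3 and 40.7 CPM in dKO_chow (log2 fold change 2.0 ± 0.39 (SE), FDR = 4.9e-04), while the sinusoidal scavenger receptor Stab2 was at 59.1 ± 4.13 and 58.2 ± 6.6 CPM. Bmp2 fell by 0.81.

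Of 44 tested genes of the cell cycle and DNA replication, 25 rose and 4 fell. Mki67, a protein of cycling nuclei, gave 2.22, 1.96, 0.725 and 0.846 CPM in the WT_chow libraries and 4.6, 5.65, 11.4 and 5.09 CPM in the dKO_chow libraries (log2 fold change 2.19 ± 0.49 (SE), FDR = 0.0013), and Top2a, which untangles replicated DNA, rose by 2.59. The 4 genes that fell (2 without dKO_chow replicate 2) were Cdkn1a, Mcm10, Pcna and Tk1. Cdkn1a, the cell cycle inhibitor p21, went from 78.3 ± 37.6 to 23.8 ± 9.88 CPM, Mcm10 fell by 1.45, and Pcna and Tk1 by 0.25 and 0.96. The call of Cdkn1a (FDR = 0.033) was lost without WT_chow replicate 1 or 3 or dKO_chow replicate 1 or 2 (FDR = 0.064 to 0.089), and that of Pcna without dKO_chow replicate 2 or 4 (0.054 and 0.054). Whether hepatocytes or the leukocytes and duct cells described above were cycling was not tested.

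Enzymes that burn fuel in mitochondria and peroxisomes were lower almost throughout. Of 52 listed targets of PPARA and enzymes that oxidise fatty acids, 42 fell and 1 rose, with a median log2 fold change of -0.76. Acaa1b, a peroxisomal thiolase, gave 1382, 756, 1451 and 1058 CPM in WT_chow and 144, 166, 172 and 161 CPM in dKO_chow (log2 fold change -2.85 ± 0.31 (SE), FDR = 1.5e-06), with no overlap between the groups. Cyp4a14, a fatty acid omega-hydroxylase that PPARA controls closely, went from 197, 373, 362 and 321 CPM to 2.44, 3.88, 66.4 and 30.2 CPM (log2 fold change -3.62, and -4.71 without dKO_chow replicate 3). Fabp1, the fatty acid carrier of the hepatocyte, fell by 1.28. Cpt1a, the gate of mitochondrial entry, differed little: it gave 489.9, 463, 425 and 491 CPM in the WT_chow libraries and 315, 353, 462 and 398 CPM in the dKO_chow libraries, with overlap (a fall of 0.29 ± 0.11, FDR = 0.037), and its call was lost without WT_chow replicate 1 or 4 or dKO_chow replicate 1 or 2 (FDR = 0.067 to 0.15). Ppara itself fell by 0.69 and its coactivator Ppargc1a by 1.57. The exception was Ucp2, which macrophages and hepatocytes of inflamed liver make, higher by 1.09.

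Of 76 subunits of the respiratory chain and ATP synthase, 73 fell and none rose. The falls were small and even, with a median log2 fold change of -0.54. By complex, 34 of 37 subunits of complex I, 4 of 4 of complex II, 9 of 9 of complex III, 10 of 10 of complex IV and 15 of 15 of ATP synthase fell, with medians of -0.52, -0.67, -0.57, -0.53 and -0.53. Ndufs1, the largest core subunit of complex I, gave 145, 129.5, 142 and 153 CPM in WT_chow and 90.7, 81.4, 82.5 and 79.4 CPM in dKO_chow (log2 fold change -0.77 ± 0.09 (SE), FDR = 1.8e-06). In the TCA cycle list, 21 of 23 genes fell and Idh3a rose by 0.41. Malic enzyme (Me1), which feeds NADPH to fat synthesis, fell most, by 1.86, and citrate synthase (Cs) fell by 0.33.

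Amino acid breakdown fell as broadly, with 54 of 60 genes lower and 1 higher, and a median of -0.80. Got1, the aspartate transaminase of the cytosol, gave 805, 516, 529 and 504 CPM in the WT_chow libraries and 162, 140.5, 235 and 139.8 CPM in the dKO_chow libraries (log2 fold change -1.80 ± 0.31 (SE), FDR = 1.3e-04); WT_chow replicate 1 was the highest library and the groups did not overlap. Cps1, the entry enzyme of the urea cycle, fell by 0.84 and Ass1, which joins citrulline to aspartate, by 1.29. Hal, histidine ammonia-lyase, fell by 1.43. The single gene that rose was Glul, glutamine synthetase of pericentral hepatocytes, from 713, 576, 550.4 and 618 CPM to 885, 877, 835 and 932 CPM. Gluconeogenesis followed: of 32 genes 19 fell and Sik1 rose by 1.14. Pck1, the control point of gluconeogenesis, gave 5182, 4783, 4744 and 3721 CPM in WT_chow and 1095, 1130.1, 2472 and 2022 CPM in dKO_chow (log2 fold change -1.46 ± 0.29 (SE), FDR = 5.1e-04), G6pc, which releases free glucose, fell by 1.36, and the glucose transporter Slc2a2 by 1.26. Klf15, a fasting- and glucocorticoid-induced regulator of these enzymes, fell by 1.49.

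Of 30 lipogenic genes 16 fell and 2 rose (G6pdx and Elovl1), but the central synthetic enzymes Fasn and Scd1 overlapped between the groups. Fasn differed by -0.54 (FDR = 0.071) and was called lower without WT_chow replicate 2 (FDR = 0.048) or dKO_chow replicate 2 (0.0065), with DESeq2 (0.041) and with limma-voom (0.040). Scd1, the main desaturase, gave 26665, 4805, 4799 and 4456 CPM in the WT_chow libraries and 11734, 9251, 13465 and 8429.8 CPM in the dKO_chow libraries (log2 fold change 0.074 ± 0.47 (SE), FDR = 0.91); WT_chow replicate 1 was the highest of the 8 libraries, and without it Scd1 was higher in dKO_chow by 1.18 (FDR = 0.0034). Lpin1 and Lpin2, phosphatidate phosphatases that are also fasting-induced coactivators, fell by 2.38 and 1.84, and Thrsp by 1.46. G6pdx, which supplies NADPH in many cell types, rose by 1.37. Of 22 tested lipid droplet genes 8 fell and the lipase Lipe rose by 0.49. The fatty acid transporter Cd36 fell by 1.47 and Fitm1, which helps droplets form, by 1.96. Cidec, a droplet fusion protein, went from 8.05, 1.63, 18.4 and 4.79 CPM to 0.862, 1.11, 2.86 and 1.59 CPM and was not called (FDR = 0.053). It was called lower without WT_chow replicate 2 (FDR = 0.030), without both WT_chow replicates 1 and 2 (0.043), with DESeq2 (0.0073), without robust estimation (0.031) and when the 8 libraries were fitted alone (0.040). Of 23 lipoprotein genes 13 fell and 2 rose, among them Abcg1, which was not called without WT_chow replicate 1, 2 or 3 or dKO_chow replicate 2, 3 or 4 (FDR of 0.060 to 0.14). Apoa2 fell from 5282 ± 363 to 2680 ± 218 CPM, Apoc3 by 0.90 and Mttp, which loads lipid onto apolipoprotein B, by 0.59, while Apob was not called (4711 ± 286 and 4246 ± 279 CPM; FDR = 0.17, and 0.015 with DESeq2). In cholesterol synthesis 8 of 27 genes rose, a share near the 24.4% of all genes, and 3 fell, under the 21.9% of all genes (Sc5d, Scap, and Insig2, which was not called without WT_chow replicate 1, 2 or 3 or dKO_chow replicate 1, 2 or 4 (FDR of 0.059 to 0.14)), and Sqle, squalene epoxidase, rose by 1.03. The count that rose went to 13 without WT_chow replicate 2, without both WT_chow replicates 1 and 2 or without dKO_chow replicate 3, and to 5 without WT_chow replicate 3 or 4 or dKO_chow replicate 4.

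Bile acid genes fell on the synthetic and the transport side, 24 of 35 tested, with 3 higher (Abcb1a, Atp8b1 and Nr1h4). Cyp7a1, the rate-limiting enzyme of bile acid synthesis, did not pass the test: it gave 98.1, 22.3, 21.2 and 55.4 CPM in WT_chow and 99.97, 113, 29.9 and 84.5 CPM in dKO_chow (log2 fold change 0.74 ± 0.51 (SE), FDR = 0.26). Cyp8b1, which directs synthesis to cholic acid, fell by 1.46, and Sult2a8, a bile acid sulfotransferase, by 2.19. The uptake carrier Slc10a1 fell by 0.88 and the export pump Abcb11 by 0.65. The bile acid receptor Nr1h4 rose by 0.38 while its target Nr0b2, a repressor of bile acid synthesis, fell, with a log2 fold change of -1.2. In IL4KO_chow, set against the same WT_chow libraries, the log2 difference of Nr0b2 was -1.59 (FDR = 1.9e-04).

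Of 48 tested P450 enzymes 25 fell and 5 rose (Cyp17a1, Cyp1b1, Cyp2c55, Cyp4f16 and Cyp4f18), and of 60 conjugating enzymes and carriers 46 fell and 3 rose (Ugt1a9, Fmo2 and Gstm5). Cyp2e1, the ethanol-oxidising P450 and the most abundant in the list, gave 6320.3, 7550.2, 8842 and 8979 CPM in the WT_chow libraries and 3918, 3901, 4659 and 3746 CPM in the dKO_chow libraries (log2 fold change -0.97 ± 0.19 (SE), FDR = 2.8e-04), and Cyp3a11, a PXR-controlled drug-metabolising enzyme, gave 3984, 2538, 3527 and 3732 CPM in WT_chow and 1995, 1216, 2009.9 and 1662 CPM in dKO_chow (log2 fold change -1.0 ± 0.35 (SE), FDR = 0.026). The call of Cyp3a11 was lost without WT_chow replicate 1 (FDR = 0.055), dKO_chow replicate 2 (0.075) or dKO_chow replicate 4 (0.051). Ugt1a1, which conjugates bilirubin, fell by 1.61, and Gsta2, a glutathione transferase, fell by 4.25. Cyp17a1, a steroid hydroxylase, rose by 2.27, and Ugt1a9 from 44 ± 6.72 to 337 ± 55.2 CPM; Ugt1a members share exons, so reads can be split between them. The xenobiotic receptor Nr1i2 fell by 0.83, and Nr1i3 by 0.53 (FDR = 0.015; 0.062 without WT_chow replicate 3 and 0.058 without dKO_chow replicate 1). Of 29 NRF2 targets 12 fell and 3 rose (G6pdx, Gpx3 and Sod3; Sod3 was not called without WT_chow replicate 2, 3 or 4 or dKO_chow replicate 3 or 4 (FDR of 0.051 to 0.081)), with Cat, catalase, lower by 1.18 and Nqo1, a standard target, not called (FDR = 0.13; 0.042 when the 8 libraries were fitted alone).

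Cyp2c39 stood apart, with the largest fall of the named genes with at least 5 CPM. It gave 302, 233, 207 and 249 CPM in the WT_chow libraries and 0.575, 1.31, 1.17 and 0.607 CPM in the dKO_chow libraries (log2 fold change -8.03 ± 0.42 (SE), FDR = 4.0e-10). Its level was also low in IL4KO_chow, 2.5 ± 0.457 CPM, where the difference from the same WT_chow libraries was -6.65 (FDR = 5.6e-09). Cyp2c38, which shares much of its sequence, fell by 2.07, and reads that fit several members may have been counted for any of them. Ppp1r3g, a glycogen-targeting subunit of protein phosphatase, and Vldlr, the very-low-density lipoprotein receptor, also fell in dKO_chow, with log2 fold changes of -5.44 and -3.58, and were lower in IL4KO_chow, at -2.09 (FDR = 0.0098) and -3.17 (FDR = 3.0e-04). The direct contrast of dKO_chow with IL4KO_chow gave -1.38 (FDR = 0.034) for Cyp2c39, -3.35 (FDR = 0.0011) for Ppp1r3g and -0.42 (FDR = 0.58) for Vldlr.

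More male-biased genes fell than rose, with a median log2 fold change of -0.93 over the tested members. Female-biased genes moved without a common direction, and both of their counts were near the shares of all genes (24.4% higher and 21.9% lower). Of 33 tested male-biased genes 10 fell and 2 rose (C6 and Cspg5; 5 when the 8 libraries were fitted alone and 0 without both WT_chow replicates 1 and 2), and of 22 tested female-biased genes 6 fell (3 without dKO_chow replicate 1 or 4, and 2 without both WT_chow replicates 1 and 2) and 5 rose (Cyp17a1, Dhrs9, Fmo2, Rtn4 and Slc22a26; 3 without WT_chow replicate 3 or 4 or dKO_chow replicate 2 or 3). Rtn4 was not called without WT_chow replicate 3 or 4 or dKO_chow replicate 2 or 3 (FDR of 0.053 to 0.089), and Slc22a26 was not called without WT_chow replicate 1, 3 or 4 or dKO_chow replicate 2, 3 or 4 (FDR of 0.053 to 0.14); without WT_chow replicate 2 the FDR of Slc22a26 was 0.0050 and its fold change over 1.5 times as large. The major urinary proteins Mup1, Mup9 and Mup17, secreted carriers of pheromones that growth hormone pulses maintain, fell, with log2 fold changes of -3.88, -4.46 and -6.49 (Mup17 at -7.97 without dKO_chow replicate 1; Mup9 not called with limma-voom, FDR = 0.095), but Mup20 was at 2358 ± 1081 and 2689.5 ± 826 CPM and was not called; these genes are near-identical copies, and how reads were shared among them is not given in the sources used here. On the growth hormone and IGF1 axis 3 of 18 tested genes rose (Igf1r, Socs2 and Stat5a; 1 without WT_chow replicate 1) and 3 fell (Ghr, Igfbp4 and Stat5b; 6 when the 8 libraries were fitted alone), both under the shares of all genes. Stat5a was not called without WT_chow replicate 1 or 4 or dKO_chow replicate 2 or 3 (FDR of 0.059 to 0.12), nor Igfbp4 without dKO_chow replicate 1 or 3 (FDR of 0.054 to 0.073). Ghr, the growth hormone receptor, gave 561, 575, 632 and 605 CPM in WT_chow and 302, 333, 294 and 259 CPM in dKO_chow (log2 fold change -1.0 ± 0.12 (SE), FDR = 2.3e-06), while Igf1, its main hepatic target, was not called (497 ± 40.1 and 413 ± 36.4 CPM) and the feedback gene Socs2 rose by 1.66 (FDR = 0.028). Socs2 lost its call without WT_chow replicate 1, 2 or 3 or dKO_chow replicate 4 (FDR = 0.053 to 0.083) and rose by 2.39 without WT_chow replicate 4. A fit of the 8 libraries alone called Igf1 lower (FDR = 0.025). Car3, a carbonic anhydrase that is abundant in male liver, went from 2887, 1445, 3005 and 2829.7 CPM to 255, 196, 166 and 246 CPM (log2 fold change -3.56 ± 0.32 (SE), FDR = 1.6e-07).

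Iron genes, both hepcidins and several acute phase genes among them, changed in both directions, 12 of 35 higher and 15 lower. Tfrc, the transferrin receptor, gave 19.6, 17.5, 15.8 and 21.6 CPM in the WT_chow libraries and 64.1, 51.7, 40.6 and 125 CPM in the dKO_chow libraries (log2 fold change 1.92 ± 0.53 (SE), FDR = 0.0066), and Scara5, a ferritin receptor, rose by 2.32 (3.22 without WT_chow replicate 1). Bmp6, the sinusoidal signal that drives hepcidin, and Id1, a target of the same pathway, fell by 0.95 and 1.15. Alas2, the erythroid heme-synthesis enzyme, fell by 0.83. Of 17 genes of metallothioneins, zinc and copper 7 rose and 4 fell (Atox1, Atp7b, Ccs and Slc39a5; 2 with upper quartile scaling), and Atp7b was not called without WT_chow replicate 1 or 2 or dKO_chow replicate 3 or 4 (FDR of 0.11 to 0.14). Slc30a1, the zinc exporter that metal induces, rose by 1.04, and the zinc importer Slc39a5 fell by 4.58, from 1.97 ± 0.431 CPM.

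Chaperones and the listed proteasome subunits were lower. Of 44 genes of the unfolded protein and integrated stress responses 24 fell and 2 rose (Asns, and Xbp1, whose call was lost in the settings given with the B cell markers). In IL4KO_chow 17 of the 44 were lower and 0 higher than in the same WT_chow libraries, beside 475 lower of 12891 tested genes. The mean level of the list was highest in WT_chow replicate 4. Hspa5, the chaperone BiP of the endoplasmic reticulum, gave 1268, 1435, 1088 and 2202 CPM in WT_chow and 823, 867, 558 and 853 CPM in dKO_chow (log2 fold change -0.95 ± 0.23 (SE), FDR = 0.0020), Herpud1, of endoplasmic reticulum degradation, fell by 2.21 and Ddit3, the stress factor CHOP, by 1.60. Asns, asparagine synthetase, a target of ATF4, was the exception, going from 1.94, 0.326, 0.453 and 0.47 CPM to 25.5, 28, 29.9 and 31.7 CPM (log2 fold change 5.18 ± 0.95 (SE), FDR = 3.1e-04), and 6.08 on the log2 scale without WT_chow replicate 1. Of 22 heat shock genes 16 fell and Cryab rose by 0.95, with Hspa1b lower by 1.66. Of 33 proteasome subunits 30 fell and none rose, by small steps: Psma1 fell by 0.31 ± 0.056 (SE) and the median was -0.32. Immunoproteasome subunits are not among them. They were counted in the interferon gamma list, where they were called higher or not called. Of 23 clock genes 1 was higher, under the share of all genes (24.4%), and 6 were lower, near theirs (21.9%). The gene called higher was Csnk1e, which was not called without WT_chow replicate 1, 2, 3 or 4 or dKO_chow replicate 1, 2, 3 or 4 (FDR of 0.052 to 0.20). The 6 lower were 3 without WT_chow replicate 4 or dKO_chow replicate 4 and with upper quartile scaling. Arntl was not called, and the time of tissue collection is not given in the labels.

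Of 48 transcription factors and nuclear receptors 14 fell, a share near the 21.9% of all genes, and 7 rose, under the 24.4% of all genes. Hnf4a, the central hepatocyte factor, overlapped between the groups (1009.6 ± 164 and 842 ± 73.1 CPM, FDR = 0.12). Esrrg, an orphan receptor of oxidative metabolism, fell by 3.38, and Prox1, a factor of hepatocyte and lymphatic development, rose by 1.16; in IL4KO_chow Prox1 differed from the same WT_chow libraries by 0.88 (FDR = 0.022).

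Some of the widest differences lay outside the lists. Tmc5, a transmembrane channel-like protein, gave 581 counts in dKO_chow and 1 in WT_chow, a ratio of 279.9 (95% interval 50.03 to 11070). Shc2, a signalling adaptor, gave 610 and 3 counts, a ratio of 97.9 (95% interval 33.4 to 476.2); its log2 fold change was 6.39, and 7.37 without WT_chow replicate 4. The 1 WT_chow count of Tmc5 lay in replicate 4; its call remained without that library (FDR = 0.038). Intervals cover counting error only. Of genes that fell, the water channel Aqp4 went from 5.36, 5.46, 6.97 and 6.2 CPM to 0.431, 0.508, 0.584 and 0.42 CPM and the mitochondrial Acss3 from 12.2, 8.73, 8.15 and 10.7 to 1.2, 1.17, 0.992 and 0.514.

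The difference on chow was set beside the one on high-fat feed, which shares no library with it. Between dKO_HFD and WT_HFD 3157 genes (24.5%) were called. Of the 5966 genes called on chow, 1416 were also called in the same direction on high-fat feed, which is 23.7% of the chow calls and 44.9% of the high-fat calls, and 194 were called in the opposite direction. Without dKO_HFD replicate 4, the library that lay towards dKO_chow, 1092 were called in the same and 373 in the opposite direction, and without dKO_HFD replicate 2 the latter were 87. The test of the difference between the diets called 3254 genes (25.2%), 2391 of them among the chow calls; it called 2130 without dKO_HFD replicate 2 and 4457 without dKO_HFD replicate 4. Of 13 genes set for this test, 7 were called. The estimates of Mki67 and Col1a1 had opposite signs on chow and on high-fat feed, where neither was called with all libraries. Mki67 was higher by 2.19 on chow and at -0.77 (FDR = 0.23) on high-fat feed, a difference of 2.97 ± 0.68 (SE, FDR = 0.0057). Col1a1 was at 1.54 on chow (FDR = 0.075, not called) and at -1.70 on high-fat feed (FDR = 0.055). Without WT_HFD replicate 2 or dKO_HFD replicate 1 the latter FDR was 0.041 or 0.043. The difference of Col1a1 between the diets was 3.25 ± 0.93 (FDR = 0.019). Krt19 rose on both diets, by 3.59 on chow and 1.17 (FDR = 0.021; 0.051 to 0.061 without WT_HFD replicate 2 or 4 or dKO_HFD replicate 3 or 4) on high-fat feed, and the rise was larger on chow (difference 2.42 ± 0.54, FDR = 0.0042). Lyz2 and Clec4f were higher on chow and near 0 on high-fat feed (0.29 and -0.019), with differences of 1.42 (FDR = 0.018) and 0.72 (FDR = 0.040), and Ndufs1 and Cpt1a differed by -0.58 (FDR = 0.0041) and -0.50 (FDR = 0.025). The call of Clec4f was lost in 12 of the 16 fits with 1 library left out (FDR of 0.053 to 0.096), and that of Cpt1a without WT_HFD replicate 4 or dKO_chow replicate 1 (0.055 and 0.054). Saa1 and S100a8 turned on dKO_HFD replicate 4. Saa1 gave 108, 69.7, 100.7 and 1808 CPM in dKO_HFD replicates 1 to 4 and 123 ± 34.1 CPM in WT_HFD (SD, n = 4), and S100a8 0.602, 0.371, 0.511 and 15.5 CPM in dKO_HFD. With all libraries the log2 fold changes on high-fat feed were 2.09 ± 1.24 and 1.98 ± 1.24 (SE), neither called, and the difference between the diets was not called (FDR = 0.23 and 0.17). Without that library they were -0.41 and -0.98, and the difference between the diets was called for both, at 5.32 (FDR = 0.018) and 6.40 (FDR = 0.0034). For Saa1 it was also called without WT_chow replicate 2 (5.23, FDR = 0.031). Il10, Alb, Cyp7a1 and Cyp3a11 gave no called difference between the diets, but that of Alb was called without dKO_HFD replicate 4 (-0.48, FDR = 0.031).

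**Figure D5:**
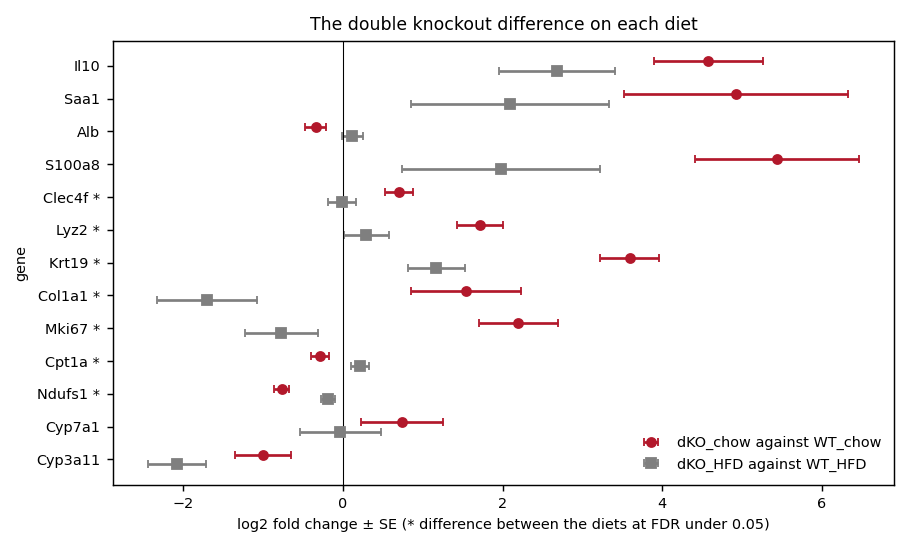
Log2 fold change ± SE of dKO_chow against WT_chow (red circles) and of dKO_HFD against WT_HFD (grey squares) for the 13 genes; a star marks a difference between the diets at FDR under 0.05. For Mki67 and Col1a1 the circles lie right of 0 and the squares left of it; for Cyp3a11 both lie left.

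The IL-4 knockout on chow was set beside both groups. dKO_chow against IL4KO_chow gave 5822 called genes (45.2%), 2960 higher and 2862 lower, and IL4KO_chow against WT_chow 1239 (9.61%), 764 higher and 475 lower. Without WT_chow replicate 2 the count higher in IL4KO_chow was 507, and without IL4KO_chow replicate 2 or 4 the count lower was 294 or 307. These contrasts share libraries with the main one. For named genes, Saa1 was at 231 ± 322 CPM, S100a8 at 0.844 ± 1.54, Krt19 at 0.324 ± 0.0486 and Ndufs1 at 147 ± 11.3 in IL4KO_chow (SD, n = 4). In the list of acute phase proteins 1 of 37 genes was higher and 0 lower in IL4KO_chow than in WT_chow, beside 31 and 2 in dKO_chow, and in the neutrophil list 0 and 0, beside 21 and 0. Other lists moved more in IL4KO_chow, where 764 of 12891 tested genes were higher and 475 lower. Of 44 unfolded protein and stress response genes 0 were higher and 17 lower, beside 2 and 24 in dKO_chow. The clock list gave 10 higher and 2 lower of 23, beside 1 and 6. Transcription factors and nuclear receptors gave 13 and 2 of 48, beside 7 and 14. Genes near the targeted loci were called about as often as the rest: within 10 Mb of Il10 (mm10 chr1:131019845-131024970) 53 of 100 tested genes were called, and within 10 Mb of Il4 (chr11:53612460-53618665) 90 of 176, against 46.5% of the genes outside the Il10 window.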

How the data were processed

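RNA from mouse liver was sequenced in 23 libraries, and the 8 from WT_chow and dKO_chow livers carry the comparison. The authors deposited estimated counts per gene, which are not all whole (88.6 to 94.3% of a library's values, zeros included, are). They also deposited a table of log2 values for 14078 genes. From the values, these are log2 of 1 plus a count scaled for depth, shifted by a constant per library. The exact scaling is not known from them. Per the submitters' processing notes, bcl2fastq 2.16, TopHat2 2.0.8 and Partek were used with build mm10; roles, annotation, strand and parameters are not stated there. All columns were mapped to a sample by title.

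Counts were rounded to whole numbers and tested with edgeR 4.0.16 (R 4.3.3): a filter on low counts by group (12891 of 24440 genes kept), trimmed mean of M values scaling, and the robust quasi-likelihood test on 1 fit of the 6 group means, two-sided, adjusted by Benjamini-Hochberg over the tested genes, with a threshold of 0.05. DESeq2 1.42.0, limma 3.58.1 (voom, and on the deposited log2 values), other scalings and filters, thinning to equal depth, a fit of the compared groups alone and leaving out each library were the alternatives. The scripts were tested on simulated counts. Depth limits what can be called among scarce genes.

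Genes were named by rule: Il4 and Il10, up to 15 called genes a direction by size of change (at least 5 CPM in the higher group, no overlap), up to 12 by difference in CPM, and in each list its anchor genes with up to 5 called members in the commoner direction and 2 in the other (at least 1 CPM). Outside the rule, and chosen after their values were seen, are Apcs, Ass1, Atox1, Atp7b, Ccl22, Cftr, Col18a1, Crp, Cyp1b1, Cyp2c55, Cyp4f16, Gstm5, Igfbp4, Il11ra1, Insig2, Krt18, Krt8, Lrg1, Masp2, Mmp19, Mpo, Nr1h4, Nr1i2, Pcna, Pou2af1, Ppara, Rtn4, Saa3, Slc10a1, Slc22a26, Sod3, Sox9, Steap4, Timp1 and Tk1. The libraries, lists and tests were chosen with earlier results of these data known. Some genes that the rule names are not reported here.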

Additional observations from a re-analysis of the deposited data

Results flagged for a closer look

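Among the genes named above, the highest or lowest library of a group of 4 was tested for its distance from the others with Dixon's gap ratio at its 95% critical value. The critical value lets about 1 in 20 pass where values are normally distributed, which CPM need not be. A group with a single library above 0 always passes, and some genes were chosen after their values were seen. The share that passed can therefore not be read against that rate. Of 478 pairs of a gene and a group, 43 (9.0%) passed. Of these, 16 lay in WT_chow replicate 1: Asns at 1.94 CPM (others 0.326 to 0.470), Chil3 at 1.2 CPM (others at 0), Ctsg at 0.278 CPM (others at 0), Cyp2c55 at 1.39 CPM (others 0.408 to 0.543), G6pdx at 12.1 CPM (others 5.14 to 5.89), Got1 at 805 CPM (others 504 to 529), Igfbp4 at 1234 CPM (others 1412 to 1442), Ltf at 1.76 CPM (others 0 to 0.0906), Mpo at 2.40 CPM (others at 0), Ngp at 6.47 CPM (others at 0), Pou2af1 at 0.647 CPM (others 0.163 to 0.188), Scara5 at 55.0 CPM (others 10.8 to 12.9), Scd1 at 26660 CPM (others 4456 to 4805), Sik1 at 27.6 CPM (others 9.54 to 10.6), Sod3 at 41.8 CPM (others 27.4 to 29.9), Sult2a8 at 556 CPM (others 811 to 837). WT_chow replicate 2 had 12: C6 at 142 CPM (others 263 to 280), Car3 at 1445 CPM (others 2830 to 3005), Ccl22 at 0.245 CPM (others 0.0906 to 0.0940), Ecm1 at 124 CPM (others 158 to 163), Gsta2 at 14.8 CPM (others 27.8 to 28.8), Hp at 5660 CPM (others 2822 to 2986), Lrg1 at 998 CPM (others 389 to 434), Orm2 at 97.7 CPM (others 5.16 to 13.4), Saa1 at 527 CPM (others 17.7 to 42.5), Saa2 at 348 CPM (others 11 to 21.1), Saa3 at 7.18 CPM (others 3.42 to 3.98), Slc2a2 at 325 CPM (others 360 to 366). WT_chow replicate 3 had 1: Isg15 at 3.71 CPM (others 5.95 to 6.01). WT_chow replicate 4 had 5: Apoc2 at 218 CPM (others 253 to 259), Hba-a1 at 94.0 CPM (others 23.5 to 28.7), Hnf4a at 1253 CPM (others 899 to 958), Il4ra at 29.3 CPM (others 38.8 to 40.0), Tmc5 at 0.0940 CPM (others at 0). In dKO_chow replicate 1 there were 3: Cat at 1639 CPM (others 1564 to 1571), Il1rap at 126 CPM (others 115 to 116), Pon1 at 507 CPM (others 462 to 466). In dKO_chow replicate 2 there were 3: Hamp2 at 4.81 CPM (others 0.187 to 0.584), Hspa1b at 25.4 CPM (others 19.3 to 20.2), Krt19 at 12.6 CPM (others 5.22 to 5.72). In dKO_chow replicate 3 there were 3: Cd36 at 34.8 CPM (others 25.6 to 26.7), Hspa5 at 558 CPM (others 823 to 867), Mki67 at 11.4 CPM (others 4.60 to 5.65). No value of dKO_chow replicate 4 passed. The genes are not independent of each other. Where leaving such a library out changed a call or moved a called fold change by over 1.5 times, the value without it or the counts it held are given beside the result; for the other genes neither occurred.

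The genotype difference on chow minus that on high-fat feed, on the log2 scale, passed the test of that difference (edgeR, adjusted over all genes) for 7 of 13 genes. It was 3.25 for Col1a1, 2.97 for Mki67, 2.42 for Krt19, 1.42 for Lyz2, 0.72 for Clec4f, -0.50 for Cpt1a and -0.58 for Ndufs1.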

How the results depend on the processing

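No paired analysis was possible because the labels give no replicate numbers, so replicate numbers here follow accession order and only name a library. The count of genes called between dKO_chow and WT_chow, 5966, ran from 5196 to 5660 when 1 library was left out and from 4924 to 6172 under the other settings, the lowest at equal depth; without WT_chow replicates 1 and 2 together, a setting added after the data were seen, it stayed within 1.5 times. Of its calls 52.8% were higher, against 63.2% with upper quartile scaling and 61.8% on the deposited log2 values. The diet difference, 3254 genes, ran from 2130 to 4457 with 1 library left out (961 to 2160 for the 1630 higher and 1169 to 2297 for the 1624 lower); at equal depth 992 were higher, and on the deposited log2 values 1023 were lower. For IL4KO_chow against WT_chow the ranges with 1 library left out were 507 to 659 for the 764 higher and 294 to 513 for the 475 lower. The causes were not tested.

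Of 219 genes of the text that were called, 180 kept their call in all settings. Another 25 lost it without 1 library, as given beside them, and 14 only in other settings: Atox1 and Mmp19 with upper quartile scaling (FDR = 0.053 and 0.059) and on the deposited log2 values (0.070 and 0.061), Lox and Stat5b on those values (0.056 and 0.0502), Mpo with DESeq2 (0.059), Ccl22 and Mup9 with limma-voom (0.066 and 0.095), and C6, Col18a1, Cspg5, Hamp2, Rsad2, Tfrc and Tmc5, with Atox1, Ccl22 and Stat5b, without WT_chow replicates 1 and 2 together (0.051 to 0.16). Of 96 counts of list members called in 1 direction, 62 stayed within 1.5 times in all settings. On chow, signs turned only for genes that were not called. With 1 library left out, Ifit1 ran from -0.23 to 0.21, Isg15 from -0.19 to 0.0045, Stab2 from -0.095 to 0.043, Mup20 from -0.091 to 0.43 and Scd1 from -0.19 to 1.18, where it was called (without WT_chow replicate 1). With upper quartile scaling Ifit1 was at 0.000052, Isg15 at 0.038 and Stab2 at 0.048. Isg15 was at 0.0051 with limma-voom and Stab2 at 0.031 on the deposited log2 values. Without WT_chow replicates 1 and 2 together, Ifit1 was at 0.38, Isg15 at 0.10, Mup20 at -0.10 and Stab2 at 0.043. Leaving out 1 library for each of the 13 genes compared between diets was added after the data were seen. On high-fat feed the sign of 4 uncalled genes then turned: Saa1 ran from -0.41 to 2.46, S100a8 from -0.98 to 2.67, Clec4f from -0.25 to 0.096 and Cyp7a1 from -0.23 to 0.20; the negative values of Saa1 and S100a8 were those without dKO_HFD replicate 4. In the 150 bases before the start, NF-kB letters were in 3.45% of acute phase promoters and in 3.04% of all promoters. In the longer window these shares were 13.8% and 5.72%. Windows of 5 and 20 Mb around Il10 gave 51.3% and 50% of genes called. WT_chow libraries were shallower, which limits calls among scarce genes.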
